A study of Equus caballus with 4 samples.

Results

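The heat shock proteins and the DNAJ proteins are the molecular chaperones of the cell and their partners, and their mRNA was measured in differentiating equine satellite cells (ESC) with and without β-hydroxy-β-methylbutyrate (HMB), which cells make from leucine. The genes were chosen by name alone: every probe other than a control whose gene name is HSP or DNAJ followed by letters or digits was taken, without *HSPG2*, which codes for a proteoglycan. This gave 60 of the 24998 gene names on the array, 23 of them with HSP names and 37 with DNAJ names, on 115 probes. The study addresses the response of the ESC transcriptome to HMB. Primary ESC were differentiated, HMB was added after 2 d for 24 h, and the cells were taken on day 3 of differentiation; control cells differentiated in the same way without HMB. The dose is 50 in both sources, but in µg in the sample records and in µM in the study's methods, and the description in these records calls the cells GO-treated where their titles and source names say HMB, which was used here. Each of 4 two-colour arrays on 1 slide carried HMB-treated cells in Cy5 and control cells in Cy3 (*n* 4). No array had the dyes the other way round, so an effect of the dye on a probe cannot be told apart from the effect of HMB. The labels do not name the cultures or animals behind each array, so the p-values measure only the spread between these 4 pairs of samples.

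Chaperones bind proteins that are unfolded or only partly folded and keep them from aggregating. HSP70 proteins do so in cycles of ATP use that DNAJ proteins start and nucleotide exchange factors end, HSP90 proteins act later on partly folded clients, and small heat shock proteins hold unfolded proteins without using ATP. In striated muscle, several small heat shock proteins are abundant and lie along the sarcomere, and chaperones are needed for the folding of myosin.

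A value below is the log2 ratio of HMB-treated to control cells, which is negative where the mRNA was lower with HMB. Of the 60 genes, 51 had a probe above background and were tested, on 102 probes, and 50 of these had both channels above background on all 4 arrays. The other 9 were not tested. For *HSPA6*, *HSPA12B*, *HSPB9*, *DNAJB7*, *DNAJB13*, *DNAJC5B*, *DNAJC6* and *DNAJC27*, 8 genes, the brightest probe was above background on no array, and that of *DNAJC16* was above background only in the control channel of 2 arrays.

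With HMB, 15 of the 51 tested genes changed (29.4%), against 22.4% of all 15614 tested genes. With the authors' lowess dye normalisation, 13 were lower, which is 25.5% against a background of 11.6%, whereas without lowess 12 of the 51 changed, 5 lower and 7 higher, against 24.7% of all genes, 5.76% lower and 18.9% higher. In the deposited ratios 2 genes were higher, with a background of 10.9%. The 15 genes had the same sign on all 4 arrays. Over probes, 24 of 102 passed the test and 21 of these were lower, where 22.8% of all tested probes passed, 11.6% lower and 11.2% higher.

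Of 20 tested HSP genes, 11 were lower (55.0%) and 0 were higher by limma in the deposited ratios, while without lowess 5 were lower and 4 higher. At an unadjusted P under 0.05 the same count, 11, was lower by limma, while a test on each probe's own variance, without limma's moderation, called 0 and had 12 at an unadjusted P under 0.05. The median log2 ratio of the 20 HSP genes was -0.31 with lowess and turned to 0.11 without it, beside 0.02 and 0.13 over all tested genes. Of 31 tested DNAJ genes, 4 changed (12.9%, below the 22.4% of all genes), 2 lower and 2 higher, with a median of 0.03, and without lowess 0 were lower and 3 higher by limma, with a median of 0.20. The difference between HSP and DNAJ names was not tested. The 36 genes that did not pass the test had means from -0.33 (*DNAJC12*, adjusted P = 0.0548) to 0.16 (*DNAJC22*), 16 below 0 and 20 above. The plot of every tested gene on every array shows these values.

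**Figure D1:**
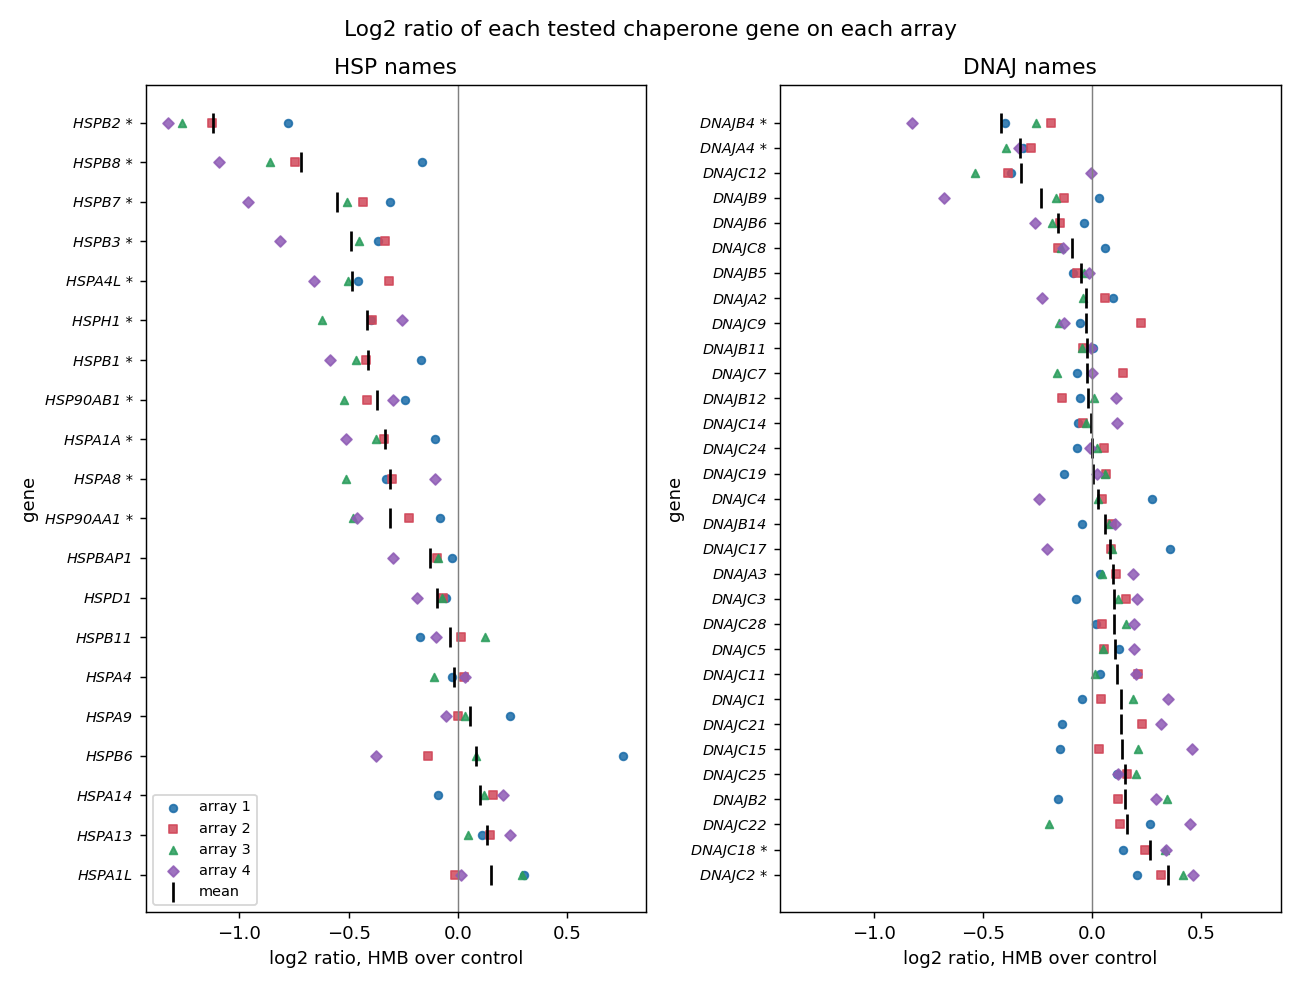
Log2 ratio of HMB-treated over control cells (horizontal axis) for each tested gene with an HSP name (left) or a DNAJ name (right), ordered by mean, with 1 mark for each of the 4 arrays and a bar for the mean. An asterisk marks the 15 genes past the threshold; in these lowess-normalised ratios the marked HSP genes lie left of 0 on every array, whereas without lowess 4 of them have a mean above 0.

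The direction of some bright genes turned with the dye normalisation. Without lowess, with each array centred on its median, the median over all tested genes moved to 0.13, and 78.3% of the probes past the threshold were higher, against 49.1% in the deposited ratios. This shift grew with intensity. In 10 bins of equal size, a division chosen after the values had been seen, the median without lowess over all tested probes went from -0.08 in the dimmest bin to 0.48 in the brightest, while it stayed between -0.02 and 0.05 in the deposited ratios. Of the 20 HSP genes, 13 were in the 3 brightest bins, and of the 31 DNAJ genes, 12 were. Of the 13 lower genes, 9 remained below 0 without lowess, 10 were below the median of all genes, and 12 were below the median of their own intensity bin. The 4 that moved above 0 were *HSP90AB1* (0.57), *HSPA8* (0.41), *HSPB1* (0.32) and *HSP90AA1* (0.05), and relative to the median of all genes their values were 0.44, 0.28, 0.19 and -0.08. All 4 were in the brightest bin, where *HSPB2* remained lower (-0.43). Only *HSP90AB1* was above the median of its own bin, by 0.10. With normexp and loess on each array, 14 of the 15 kept the call, *HSP90AB1* lost it (-0.11, adjusted P = 0.187) and *DNAJC12* gained it.

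**Figure D2:**
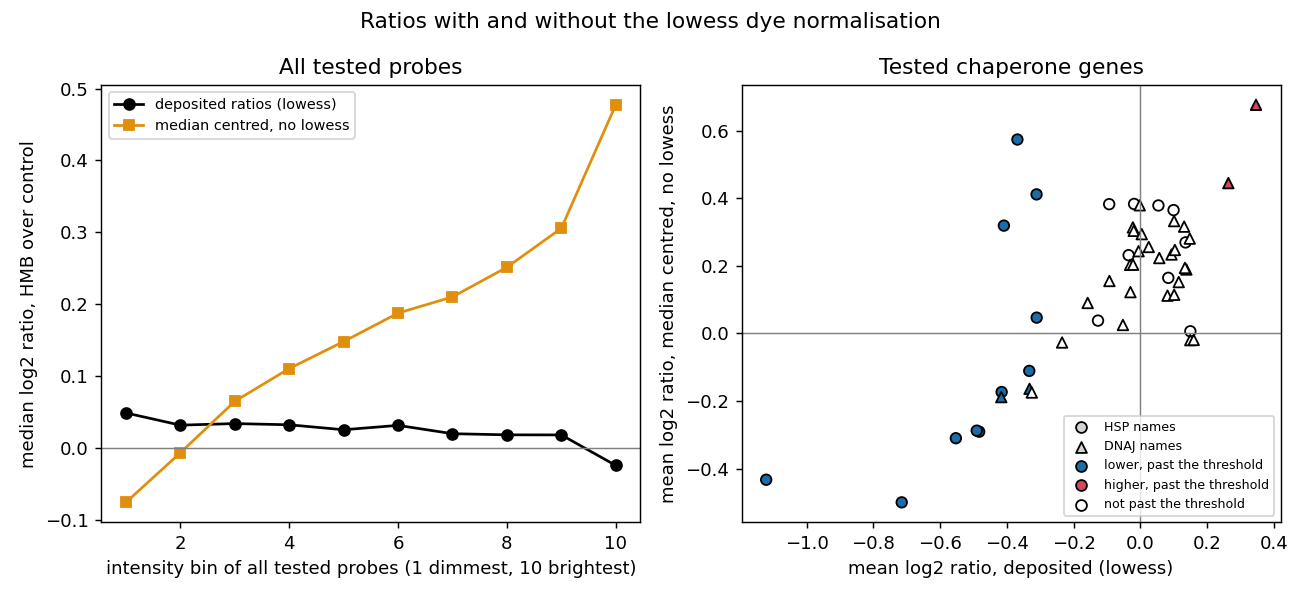
Left, median log2 ratio of HMB-treated over control cells of all tested probes in 10 bins of intensity, for the deposited ratios and for median-centred ratios made with no lowess. Right, mean log2 ratio of each tested chaperone gene in both (*n* 4 arrays), filled where the deposited ratio passed the test; 4 of the 13 lower genes lie above 0 on the vertical axis.

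Calls were also lost when single arrays were left out. Without replicate 2, 3 of the 15 genes passed the test (*HSPA4L*, *HSPB2* and *HSPB3*), and without replicate 3, 2 did (*HSPA4L* and *HSPB2*). In both cases the 15 kept their sign, and means such as those of *HSPB8* (-0.71 and -0.67, against -0.72 with all arrays), *DNAJB4* (-0.49 and -0.47, against -0.42) and *HSPH1* (-0.42 and -0.35, against -0.42) kept most of their size. Over all probes the number called dropped from 6257 to 2569 and 2729. Without replicate 1 or 4, 13 and 12 of the 15 passed. *HSPA4L* and *HSPB2* passed in 13 of the 14 alternatives, failing only the test on each probe's own variance.

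Array 1 had the smallest fall in 7 of the 13 lower genes, and array 4 the largest in 8. The median of these 13 genes was -0.32, -0.34, -0.50 and -0.58 on arrays 1 to 4. Over all tested genes, the array medians were 0.01, 0.01, 0.03 and 0.01. The spread of the ratios over tested probes was also widest on array 4, with an SD of 0.48 against 0.35, 0.34 and 0.39 on arrays 1 to 3.

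The small heat shock proteins had the family median farthest from 0 in the deposited ratios. Without lowess, those of HSP90 (0.31) and of the chaperonin *HSPD1* (0.38) were farther from 0. Relative to the median of all genes, that of the small heat shock proteins was farthest without lowess as well, beside 0.18 for HSP90 and 0.25 for *HSPD1*. Of 7 genes, 6 were tested, and 5 of these were lower (83.3%, against 11.6% of all genes). Their median of -0.52 stayed negative without lowess (-0.30, or -0.43 relative to the median of all genes), where 4 were lower and *HSPB1* was higher. Without replicate 2 the number lower was 2, and without replicate 3 it was 1. It was 1 with no filter on dim probes and 0 by the test on each probe's own variance, which had 5 at an unadjusted P under 0.05. The plot of means by family sets the small heat shock proteins beside the other chaperones. Their array medians were -0.24, -0.43, -0.49 and -0.89, so that array 1 was nearest to 0 and array 4 farthest from it.

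**Figure D3:**
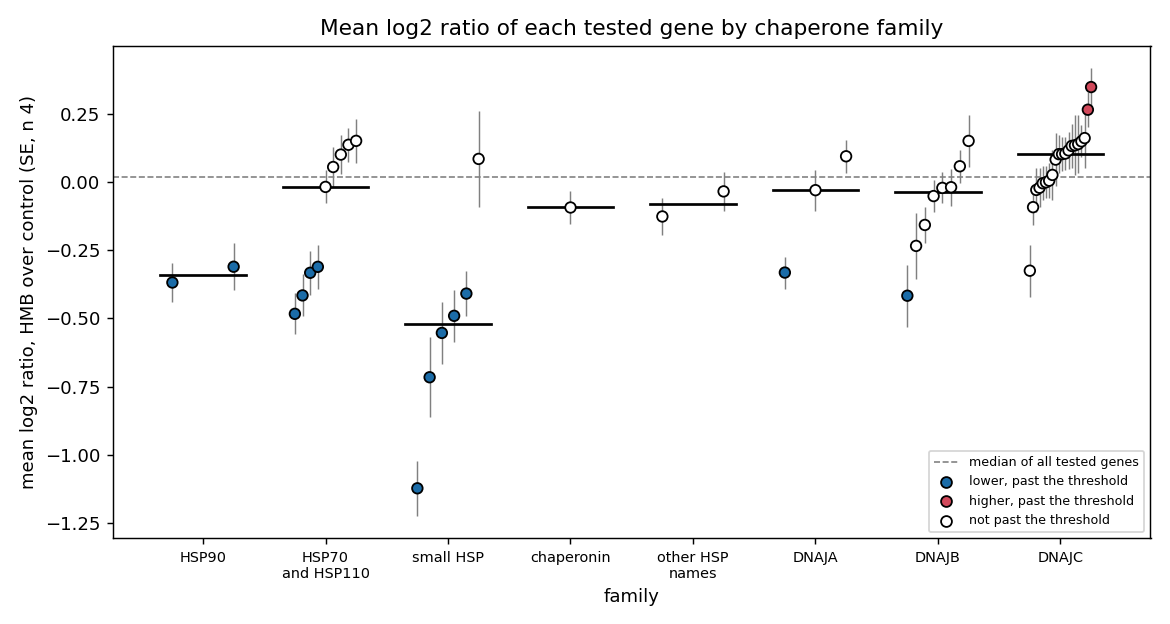
Mean log2 ratio of HMB-treated over control cells, with SE (*n* 4 arrays), of each tested gene by family. Black bars are family medians and the dashed line is the median of all tested genes, 0.02; the small heat shock protein median is -0.52 here and -0.30 without lowess, while the HSP90 median is -0.34 here and 0.31 without lowess.

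*HSPB2*, a muscle heat shock protein that binds the myotonic dystrophy kinase, had log2 ratios of -0.78, -1.12, -1.26 and -1.32 on arrays 1 to 4. Its processed intensity was 47600, 46110, 49170 and 51930 in control cells and 27810, 21150, 20490 and 20740 in HMB-treated cells. The channels did not overlap, since each HMB value was below every control value. The mean was -1.12 (SE 0.10, *n* 4), a 2.18-fold lower level, with an adjusted P = 0.00194, the largest change among the 51 genes in the deposited ratios. Without lowess the mean was -0.43, also past the threshold, and *DNAJC2* (0.68), *HSP90AB1* (0.57), *HSPB8* (-0.50) and *DNAJC18* (0.445) were farther from 0. Relative to the median of all genes, *HSPB2* was at -0.56 and only *HSPB8* was farther (-0.63). On that scale *DNAJC2* was at 0.55, *HSP90AB1* at 0.44 and *DNAJC18* at 0.31. Relative to the median of its own intensity bin, *HSPB2* was at -0.91.

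*HSPB8*, which works with *BAG3* in the disposal of damaged muscle proteins, had -0.16, -0.75, -0.86 and -1.09. Array 1 was close to 0 and the other 3 arrays were far below it. The mean was -0.72 (SE 0.15), or 1.64-fold lower, with adjusted P = 0.0198. The log2 ratio of *BAG3* itself was -0.15 (adjusted P = 0.201). The *HSPB8* probe is shown because its 60 bases map over 5380 bases of the EquCab1 build, so that it reads spliced mRNA; it is written 5′ to 3′ in lower case throughout.
HSPB8 probe 1: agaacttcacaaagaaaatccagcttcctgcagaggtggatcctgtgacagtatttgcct

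*HSPB7*, a small heat shock protein of heart and skeletal muscle, had -0.31, -0.43, -0.51 and -0.96. All 4 arrays were below 0, with array 4 apart from the rest. Its mean was -0.55 (SE 0.11), 1.47-fold lower (adjusted P = 0.0194). *HSPB3*, which forms complexes with *HSPB2* in muscle, had -0.36, -0.33, -0.45 and -0.81, again lowest on array 4. Its mean was -0.49 (SE 0.09), 1.41-fold lower (adjusted P = 0.0167). Both means were smaller with normexp and loess (-0.28 for *HSPB3* and -0.31 for *HSPB7*) and without lowess (-0.29 and -0.31), where both genes passed the test. Both genes were dim, with processed intensities between 36.5 and 85.2 for *HSPB3* and between 56.0 and 109.0 for *HSPB7*. The gene *HSPB3* had 5 tested probes with means from -0.58 to -0.37, of which 4 passed the test. These probes are not independent, as they are windows on 1 stretch of the gene, which the sequences show: capitals mark the 43 bases that all 5 share, and probe 1 maps to chr21:13575049-13575108 of EquCab1, minus strand.
HSPB3 probe 1: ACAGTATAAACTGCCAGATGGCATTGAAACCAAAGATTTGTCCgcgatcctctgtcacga
HSPB3 probe 2: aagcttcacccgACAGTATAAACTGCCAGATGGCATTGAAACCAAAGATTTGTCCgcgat
HSPB3 probe 3: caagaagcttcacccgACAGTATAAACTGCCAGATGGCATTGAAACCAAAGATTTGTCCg
HSPB3 probe 4: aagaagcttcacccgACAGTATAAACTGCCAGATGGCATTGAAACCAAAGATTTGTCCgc
HSPB3 probe 5: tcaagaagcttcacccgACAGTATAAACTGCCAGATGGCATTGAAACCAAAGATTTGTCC
The probe of *HSPB7* ends with the stop codon of its reading frame, in capitals, so that it reads the end of the coding sequence (chr2:35083029-35083088, plus strand).
HSPB7 probe 1: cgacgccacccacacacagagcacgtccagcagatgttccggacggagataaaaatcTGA

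*HSPB1*, or HSP27, which is bound to the actin skeleton, had -0.17, -0.42, -0.47 and -0.58. Array 1 was nearest to 0 again. The mean was -0.41 (SE 0.08), 1.33-fold lower (adjusted P = 0.019), but 0.32 without lowess, where it passed the test in the other direction. *HSPB6*, or HSP20, was the exception among the small heat shock proteins. Its values were 0.76, -0.13, 0.09 and -0.37, with array 1 far above 0 and array 4 below it. The mean of 0.08 (SE 0.18) did not pass the test (adjusted P = 0.758). The plot of intensities by channel shows the 5 lower genes beside *CRYAB*.

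**Figure D4:**
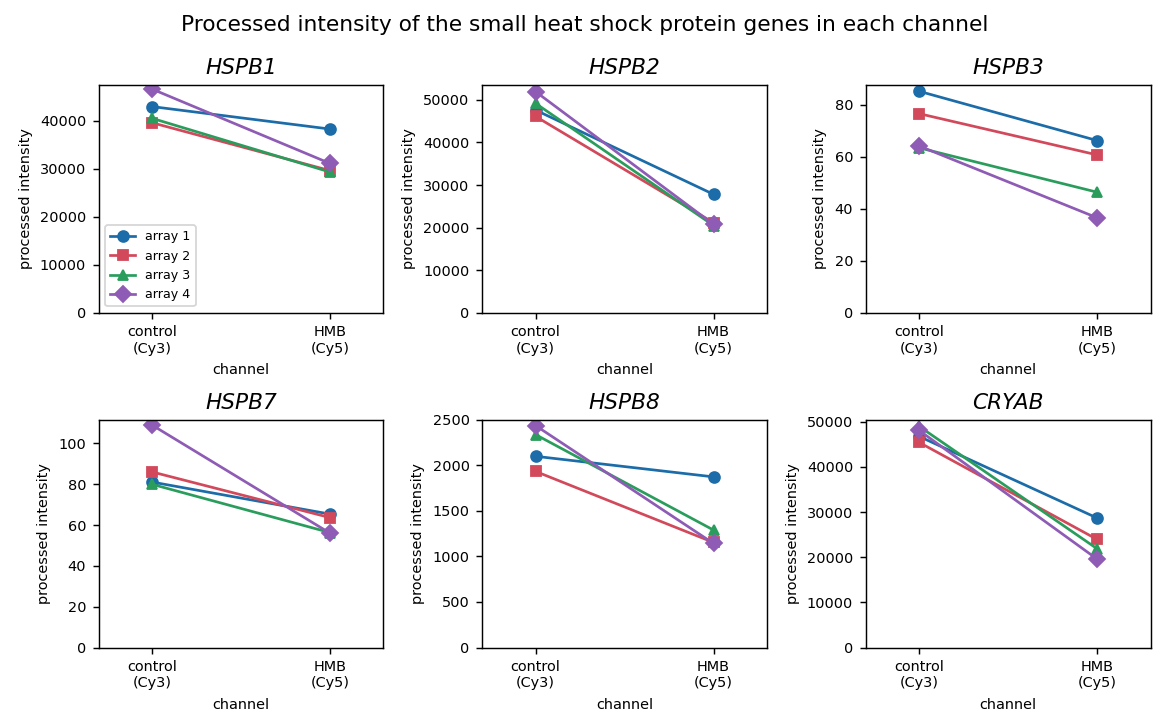
Processed intensity (arbitrary units, linear axis from 0) of 5 small heat shock protein genes and *CRYAB* in control cells (Cy3) and HMB-treated cells (Cy5), with 1 line for each of the 4 arrays. In these lowess-normalised intensities every line runs downwards; without lowess the mean ratio of *HSPB1* is above 0 (0.32).

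*CRYAB* codes for αB-crystallin, a small heat shock protein that the choice by name does not reach. Its log2 ratios were -0.71, -0.92, -1.16 and -1.30, all well below 0. The mean was -1.02 (SE 0.11), 2.03-fold lower (adjusted P = 0.00297), and all 5 of its tested probes were lower. Without lowess the mean was -0.38, also past the threshold. *CRYAB* and *HSPB2* are neighbours: their brightest probes map to chr7:17113785-17113844 on the minus strand and chr7:17119180-17119239 on the plus strand of EquCab1, with 5335 bases between them. Their values followed the same order over the arrays, as did those of other genes, such as *HSPB1*, *HSPB8* and *HSPA1A*. The other α-crystallin, *CRYAA*, was above background only in the control channel of 1 array and was not tested. A neighbour of another kind is *HSPA1L*, 15430 bases from *HSPA1A* on chromosome 20, with a mean of 0.15 that did not pass the test (adjusted P = 0.227).

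Both HSP90 genes of the cytosol were lower in the deposited ratios, against 11.6% of all genes, with a family median of -0.34. This direction turned without lowess, where the median was 0.31 and 0.18 relative to all genes. *HSP90AB1*, the constitutive form, had -0.24, -0.42, -0.52 and -0.30, lowest on array 3. The mean was -0.37 (SE 0.07), 1.29-fold lower (adjusted P = 0.0169), but 0.57 without lowess, where it passed the test in the other direction (adjusted P = 0.019). In the deposited ratios the 5 brightest probes of *HSP90AB1*, which overlap, all passed the test. Its 6th probe, elsewhere in the gene, had 0.35, -0.08, -0.27 and -0.43 and a mean of -0.11 (adjusted P = 0.574). *HSP90AA1*, the stress-inducible form, had -0.08, -0.22, -0.48 and -0.46. Arrays 3 and 4 were lower than arrays 1 and 2. The mean was -0.31 (SE 0.09), 1.24-fold lower (adjusted P = 0.0475, close to the threshold of 0.05). Its 1 probe lies in an open reading frame and maps over 338 bases of the genome, which makes it another probe of spliced mRNA.
HSP90AA1 probe 1: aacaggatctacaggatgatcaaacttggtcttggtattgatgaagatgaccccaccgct
The form of the endoplasmic reticulum, *HSP90B1*, carries another name on the array and so stands outside the 60 genes. It had -0.11, -0.38, -0.39 and -0.54, a mean of -0.36 (SE 0.08) and adjusted P = 0.0296. It too was below 0 on all 4 arrays, and above 0 without lowess (0.29), and the call was lost without replicate 2, 3 or 4 and with no filter on dim probes.

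Among 9 tested genes of the HSP70 and HSP110 family, 4 were lower (44.4%, against 11.6% of all genes) and 5 did not pass the test. The median of -0.02 became 0.27 without lowess (0.14 relative to all genes). *HSPA4L* and *HSPH1* code for HSP110 proteins, which exchange the nucleotide of HSP70. *HSPA4L* had -0.46, -0.32, -0.50 and -0.66, and array 4 was lowest. The mean was -0.48 (SE 0.07), 1.40-fold lower (adjusted P = 0.00875). Its 2 probes both passed the test (means -0.48 and -0.50), and they stand side by side on the gene (chr2:86550781-86550840 and chr2:86550721-86550780, minus strand), the latter with the stop codon in capitals.
HSPA4L probe 1: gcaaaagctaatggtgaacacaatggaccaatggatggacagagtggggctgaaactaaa
HSPA4L probe 2: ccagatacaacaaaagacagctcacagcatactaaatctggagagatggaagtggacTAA
*HSPH1* had -0.40, -0.39, -0.62 and -0.25. Array 3 was lowest and array 4 nearest to 0, unlike in the small heat shock proteins. The mean was -0.42 (SE 0.08), 1.33-fold lower (adjusted P = 0.015). The third gene of this kind, *HSPA4*, had a mean of -0.02 (adjusted P = 0.846). Of the 4 lower genes of the family, only *HSPA4L* was called lower without lowess, where *HSPA9* was called higher.

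*HSPA1A*, the classical heat-inducible HSP70, had -0.11, -0.34, -0.38 and -0.51. All 4 arrays were below 0 and array 1 was the nearest to it. The mean was -0.33 (SE 0.08), 1.26-fold lower (adjusted P = 0.0322), or -0.11 without lowess, where it did not pass the test (adjusted P = 0.303). A dimmer probe of the gene had 0.10, -0.58, -0.07 and -0.20, with a mean of -0.19 that did not pass the test (adjusted P = 0.279), and the mean of both probes did not pass either. The RefSeq table gives the transcript behind both probes to *HSPA1B*, so these genes cannot be told apart here. Both probes are shown as they lie in open reading frames, at chr20:24907273-24907332 and chr20:24905789-24905848, plus strand.
HSPA1A probe 1: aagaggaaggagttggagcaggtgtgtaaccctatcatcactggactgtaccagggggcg
HSPA1A probe 2: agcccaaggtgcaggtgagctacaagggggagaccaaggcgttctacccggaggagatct

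*HSPA8*, the constitutive HSP70 that also strips clathrin from vesicles, gave different values by probe. The brightest probe had -0.33, -0.30, -0.51 and -0.10, below 0 on every array and nearest to it on array 4. Its mean was -0.31 (SE 0.08), 1.24-fold lower (adjusted P = 0.038). The other 5 probes overlap. Their means ran from -0.22 to -0.15 and none passed the test (adjusted P from 0.163 to 0.265), with array 1 above 0 in each. The mean of all its probes did not pass the test. One of the 5, at chr7:26912606-26912665 on the minus strand, ends with a stop codon of an open reading frame, in capitals; its values were 0.09, -0.14, -0.47 and -0.26.
HSPA8 probe 5: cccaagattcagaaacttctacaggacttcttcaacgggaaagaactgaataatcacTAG

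Among the HSP70 genes that did not pass the test is *HSPA9*, the mitochondrial form, with 0.24, 0.00, 0.03 and -0.06. Array 1 was above 0 and the others were near it, and the mean was 0.05 (SE 0.07, adjusted P = 0.614), but 0.38 without lowess, where it passed the test. *HSPA5*, the HSP70 of the endoplasmic reticulum, is outside the choice by name and had 0.06, -0.12, -0.35 and -0.66. These values spread from above 0 on array 1 to far below it on array 4. The mean was -0.27 (SE 0.12) and did not pass the test (adjusted P = 0.158), whereas without lowess it was higher (0.35). The mitochondrial chaperonin *HSPD1* had -0.05, -0.07, -0.07 and -0.18. The first 3 arrays were almost alike and array 4 was lower, with a mean of -0.09 (SE 0.06, adjusted P = 0.3), whereas without lowess it was higher (0.38). No probe was found by name for its partner *HSPE1*. A pair of further HSP names, *HSPB11*, a part of the transport machinery of cilia, and *HSPBAP1*, a partner of small heat shock proteins, had means of -0.04 and -0.13 and did not pass the test.

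DNAJ proteins carry the J domain that stimulates the ATPase of HSP70. In the DNAJA family, 1 of 3 tested genes was lower in the deposited ratios (33.3%, against 11.6% of all genes), where the family median was -0.03. Without lowess 0 passed the test and the median was 0.20. *DNAJA4* had -0.32, -0.28, -0.39 and -0.34. The 4 values lay closer together than in any other lower chaperone (SD 0.05). The mean was -0.33 (SE 0.06), 1.26-fold lower (adjusted P = 0.0131), and it was the only one of the 15 genes that also passed the test on each probe's own variance. *DNAJA1*, a cytosolic partner of HSP70 outside the choice by name, had 0.11, 0.08, 0.14 and 0.28, above 0 on all 4 arrays. Its mean of 0.15 (SE 0.06) did not pass the test (adjusted P = 0.133), but did without lowess (0.48).

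In the DNAJB family, 1 of 8 tested genes was lower in the deposited ratios (12.5%, against 11.6% of all genes, with a median of -0.04), and 0 passed without lowess (median 0.06). *DNAJB4* had -0.40, -0.19, -0.26 and -0.82, with array 4 far below the other 3. The mean was -0.42 (SE 0.11), 1.33-fold lower (adjusted P = 0.0436). *DNAJB1*, the heat-inducible member of this family, has no symbol on the array. It had 0.09, 0.05, 0.00 and 0.27, near or above 0 throughout. Its mean was 0.10 (SE 0.07) and did not pass the test (adjusted P = 0.318). *DNAJB9*, of the endoplasmic reticulum, had a mean of -0.23 (SE 0.12, adjusted P = 0.201).

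In the DNAJC family, the largest, 2 of 20 tested genes were higher (10.0%, against 10.9% of all genes) and 0 were lower by limma. Of the 20, 4 had an unadjusted P under 0.05 by limma, 1 of them lower. The test on each probe's own variance called 0. The family median was 0.10 in the deposited ratios and 0.22 without lowess, where 3 were higher against 18.9% of all genes, the same side of 0, or 0.09 relative to all genes. *DNAJC2*, a chaperone bound to the ribosome, had 0.20, 0.31, 0.41 and 0.46. All 4 arrays were above 0, array 1 the least. The mean was 0.35 (SE 0.07), 1.27-fold higher (adjusted P = 0.018). *DNAJC18* had 0.14, 0.24, 0.33 and 0.34, above 0 on each array. Its mean was 0.26 (SE 0.06), 1.20-fold higher (adjusted P = 0.0332), or 0.445 without lowess, and the call was lost without replicate 2, 3 or 4 and with no filter on dim probes. The 2 probes of *DNAJC18* both passed, with means of 0.26 and 0.21, and they adjoin at chr14:36519251-36519310 and chr14:36519191-36519250, plus strand, the first with the stop codon in capitals.
DNAJC18 probe 1: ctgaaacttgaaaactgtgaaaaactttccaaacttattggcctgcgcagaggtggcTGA
DNAJC18 probe 2: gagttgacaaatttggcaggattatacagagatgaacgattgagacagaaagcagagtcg
*DNAJC5G*, found only by its description and named after its values were seen, was also higher, with 0.45, 0.31, 0.35 and 0.58. All were above 0, and the mean was 0.42 (SE 0.07, adjusted P = 0.0111). For *DNAJC21* the value on array 3 was left out, as its spot was marked by the scanner software, and its mean over 3 arrays was 0.13.

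Of the 51 genes, 21 had several tested probes. In 7 of these the probes differed in sign, and 0 of the 7 had a probe past the threshold of limma.

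The chaperones were also listed by place and use in the cell. Of 12 heat-inducible chaperones, 9 were tested. In the deposited ratios 6 were lower (66.7%, against 11.6% of all genes), with a median of -0.33. Without lowess 2 were lower and 3 higher, with a median of 0.05, where 5.76% of all genes were lower and 18.9% higher. With lowess, the number lower was 1 without replicate 2, 1 without replicate 3 and 4 without replicate 4. It was 1 with no filter on dim probes and 0 by the test on each probe's own variance, which had 7 at an unadjusted P under 0.05. Of 8 chaperones of the endoplasmic reticulum, 1 was lower, *HSP90B1* (12.5%, against 11.6% of all genes), and the median was 0.02. Without lowess 1 was higher, *HSPA5*, against 18.9% of all genes, and the median was 0.315. Of 7 tested mitochondrial chaperones, 0 passed the test of limma and 0 had an unadjusted P under 0.05. The test on each probe's own variance called 0, and the median was 0.05. Without lowess 2 were higher (*HSPA9* and *HSPD1*), against 18.9% of all genes, and the median was 0.23. The heat shock factors switch on these genes. Among 3 tested genes of factors and their regulator 1 changed (33.3%, against 22.4% of all genes). *HSF2* was lower, with -0.23, -0.45, -0.45 and -0.52 and a mean of -0.41 (SE 0.07, adjusted P = 0.0123). It did not pass the test without lowess, without replicate 2 or without replicate 3. *HSF1*, the main factor of the heat shock response, had 0.20, -0.05, -0.10 and -0.04 and a mean of 0.00 (adjusted P = 0.986).

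In the deposited ratios, partners of the chaperones passed the test at a share near that of all genes. Of 14 HSP90 co-chaperones, 3 changed (21.4%, against 22.4% of all genes), with a median of 0.06. Without lowess 1 was lower and 6 were higher, where 5.76% of all genes were lower and 18.9% higher, with a median of 0.28. *UNC45B*, the chaperone of muscle myosin, was lower (-0.62, adjusted P = 0.0144), as was *CDC37L1* (-0.44, adjusted P = 0.0485), and *FKBP5*, a partner of HSP90 on steroid receptors, was higher (0.34, adjusted P = 0.0215). Each of these 3 lost the call without replicate 2, without replicate 3 and with no filter on dim probes, and *CDC37L1* also without replicate 1, without lowess and for the mean of its probes. Of 13 tested HSP70 co-chaperones, 3 changed (23.1%), with a median of -0.05. Without lowess 0 were lower and 2 higher by limma, against the same 5.76% and 18.9% of all genes, with a median of 0.09. *BAG1*, a nucleotide exchange factor, was lower, with -0.46, -0.49, -0.58 and -0.49. These values were almost equal, and the mean was -0.50 (adjusted P = 0.00413), with the call lost without lowess (-0.19, adjusted P = 0.21). *ST13*, which stabilises HSP70 bound to its client, was lower (-0.31, adjusted P = 0.0266) but was above 0 without lowess (0.07), and *GRPEL2*, an exchange factor of mitochondria, was higher (0.24, adjusted P = 0.0396). Both lost the call without replicate 2, without replicate 3 and with no filter on dim probes, and *GRPEL2* also without replicate 4, with a variance trend and with normexp and loess (0.18, adjusted P = 0.051), where 0 genes of this list were higher by limma.

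Other folding systems were listed as well. Of 15 subunits of the chaperonin TRiC and of prefoldin, which fold actin and tubulin, 1 passed the test (6.67%, against 22.4% of all genes). The median was -0.03. Without lowess 7 were higher, against 18.9% of all genes, with a median of 0.25, or 0.12 relative to the median of all genes. The 1 gene was the dim *CCT6B*, which passed the filter only through the HMB channel, with the control channel above background on 0 arrays, so that no size of change is given for it. With both channels above background, 0 of 14 subunits passed the test of limma, and over all 15 the test on each probe's own variance called 0. Of 10 tested folding enzymes and lectin chaperones of the endoplasmic reticulum, 0 passed the test of limma and 1 had an unadjusted P under 0.05. The test on each probe's own variance called 0, and the median was -0.05. Without lowess 3 were higher, against 18.9% of all genes, and the median was 0.29. With normexp and loess 1 was lower. Of 9 tested genes of the unfolded protein response, 1 was lower (11.1%, against 11.6% of all genes), and the median was -0.06. Without lowess 1 other gene was higher, against 18.9% of all genes, and the median was 0.145. The lower gene was *HERPUD1*, which serves the breakdown of proteins of the endoplasmic reticulum, with -0.60, -0.83, -0.99 and -1.06. All 4 values were far below 0, and the mean was -0.87 (SE 0.09, adjusted P = 0.00305), a call that was lost without lowess (-0.24, adjusted P = 0.0636).

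Markers of the muscle lineage were mostly lower in the deposited ratios, as were the small heat shock proteins. Of 13 myogenic markers, 12 were tested and 11 were lower (91.7%, against 11.6% of all genes). The median was -0.92 (-0.31 without lowess, where 7 were lower, against 5.76% of all genes). The number lower was 7 without replicate 2, 7 without replicate 3, 8 without replicate 4, 2 with no filter on dim probes and 0 by the test on each probe's own variance, which had 10 at an unadjusted P under 0.05. On arrays 1 to 4 the median of these markers was -0.45, -0.84, -1.004 and -1.26, which is the same order of arrays as in the small heat shock proteins. This order was not particular to them, as *HERPUD1*, *HSPA1A*, *HSP90B1*, *HSPA5* and the fibroblast marker *COL1A1* also had it. The summed processed intensity of the list was 163600, 115900, 108300 and 97360 in HMB-treated cells and 227700, 226000, 243900 and 255800 in control cells. The brightest probe of the list was that of *MYH3*, embryonic myosin, with -0.51, -0.99, -1.38 and -1.57 and a mean of -1.11 (adjusted P = 0.00846), a call lost without lowess (-0.21, adjusted P = 0.104) and with no filter on dim probes (adjusted P = 0.0683). *MYH8*, perinatal myosin, had a mean of -1.93 (adjusted P = 0.00113), *MYF5*, a factor of early myoblasts, -1.01 (adjusted P = 0.00157), and *TNNC1*, a troponin, -0.98 (adjusted P = 0.00578). Without lowess these means were -1.56, -0.76 and -0.34 in that order, all past the threshold. *TNNC1* lost the call with no filter on dim probes (adjusted P = 0.0532). The satellite cell marker *PAX7* was not above background. In these bulk samples, fewer differentiated muscle cells and less of an mRNA in each cell cannot be told apart, and the part of the muscle markers in the chaperone result was not tested.

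**Figure D5:**
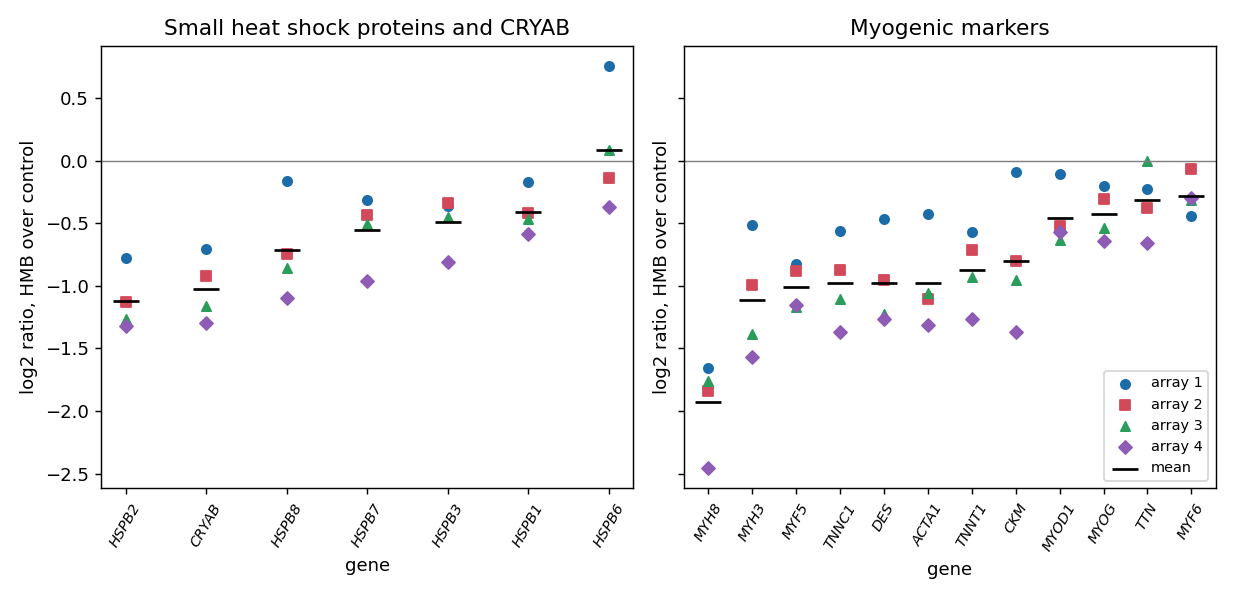
Log2 ratio of HMB-treated over control cells on each of the 4 arrays, with the mean as a bar, for the tested small heat shock protein genes and *CRYAB* (left) and the tested myogenic markers (right). In these lowess-normalised ratios array 4 is lowest for most genes on both sides; without lowess the medians are -0.30 for the small heat shock proteins, with *HSPB1* above 0, and -0.31 for the markers.

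Markers of other cells were mixed. Of 10 fibroblast markers, 9 were tested. In the deposited ratios 2 were higher (22.2%, against 10.9% of all genes) and 0 lower by limma, with a median of 0.01. Of 9 tested probes of *COL1A2*, 2 were lower, with means from -0.59 to -0.20, and of 2 of *DCN*, 1 was higher. Without lowess 6 of the markers were higher, against 18.9% of all genes, with a median of 0.72. *PDGFRA* had 1.09, 1.38, 1.46 and 2.19. It was the only fibroblast marker above 1 on every array, and its mean was 1.53 (adjusted P = 0.00358), or 0.89 with normexp and loess and 0.93 without lowess. Its probe was dim, with processed intensities between 35.2 and 41.8 in control cells and between 81.0 and 191.0 in HMB-treated cells. *FAP* had 0.42 (adjusted P = 0.0185), a call lost without replicate 1, 2 or 3 and with no filter on dim probes. The summed intensity of the fibroblast list was 459900, 320600, 341000 and 338800 with HMB and 380500, 359300, 388200 and 499700 in controls, with a probe of *COL1A2* the brightest and *TCF21*, above background on 2 HMB arrays and 1 control array, not tested. Of 6 leukocyte markers, 3 were tested. In the deposited ratios 1 was higher (33.3%, against 10.9% of all genes), and without lowess 2 were, against 18.9% of all genes. The 1 was *PTPRC*, with 0.28 (adjusted P = 0.0374), or 0.66 without lowess (adjusted P = 0.00702). With lowess the call was lost without any 1 of the 4 replicates. It was also lost with no filter on dim probes and for the mean of the gene's probes. Its 8 tested probes disagreed, with 6 higher and 1 lower and means from -0.48 to 0.37. The summed intensity of this list was 22110, 16650, 19240 and 16680 with HMB and 16950, 14960, 17180 and 15730 in controls, a probe of *PTPRC* being the brightest, and *CD3E* and *CD79A* were not above background, while *LYZ* was in each channel of 1 array and was not tested. The part of these lists in the chaperone result was not tested.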

How the data were processed

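The authors deposited Feature Extraction output (version 10.10.1.1 in the files, another than the methods name) for 4 arrays. The deposited log10 ratios (Cy5 over Cy3) and processed intensity values carry the authors' background subtraction and linear and lowess dye normalisation; the deposited mean and background intensity values were used in 2 alternatives. Ratios were multiplied by 3.32 to log2. Spots marked non-uniform or outlying were left out and the spots of a probe averaged. Testing required that either Cy5 on all 4 arrays or Cy3 on all 4 arrays exceeded background, in every spot of the probe, with values on at least 3 arrays, which 27383 of 43603 probes met. An intercept was fitted with limma 3.58.1 under R 4.3.3 and tested two-sided with its moderated variance; P was adjusted by Benjamini and Hochberg's method across the tested probes and called at 0.05. A gene is its tested probe of highest mean intensity. The number of arrays limits the precision.

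Genes with values on every array are the 12 largest changes among those past the threshold and a list of main chaperones. In other lists, up to 4 genes past the threshold are named. Of these, *BAG1*, *HSF2*, *HERPUD1*, *MYH3* and *PDGFRA* also have values on every array. A few further genes (*BAG3*, *HSPA1L*, *HSPA4*, *HSPB6*, *HSPB11*, *HSPBAP1*, *DNAJB9*, *DNAJC5G*, *DNAJC12*, *DNAJC18*, *DNAJC21*, *DNAJC22*, *HSF1*) were singled out after their values were seen. The members and lists were chosen with earlier results of these data known. The alternatives were another background correction and loess, no lowess, the summary table, a test on each probe's own variance, a variance trend, filters, marked spots, a minimum of 1.3-fold, the mean of a gene's probes and each array left out. Of 112 genes sought beyond the chosen names, 87 were found by gene name, 1 by RefSeq accession and 21 by description. Python 3.11.15 with pandas 2.3.3 and matplotlib 3.10.9 made the tables and figures.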

Additional observations from a re-analysis of the deposited data

Results flagged for a closer look

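In 41 results with a value on each of 4 arrays, the gap of the most extreme array to its neighbour was set against the whole range of the arrays, by Dixon's 95% limit; chance alone passes this in about 1 of 20 such results, and 3 of the 41 did. *CDC37L1* stood apart on array 4, with a log2 ratio of -0.91 (gap over range 0.891). *HSPD1* stood apart on the same array, with -0.18 (0.862). *PTPRC* stood apart on array 1, with 0.47 (0.938). The causes were not tested.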

How the results depend on the processing

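With 4 arrays, 1 dye order and changes mostly under 1.5-fold, the number of arrays limits what can be called. The count of changed chaperone genes, 15, was between 13 and 15 with normexp and loess, the summary table, a variance trend, both channels above background, marked spots kept or the mean of a gene's probes, and 12 without lowess. It was 1 by a test on each probe's own variance, 5 with no filter on dim probes and 8 with a minimum of 1.3-fold, and from 2 to 13 with an array left out. For HSP names, 11, the counts were 0, 2 and 7 in that order, from 2 to 10 with an array left out, and 9 without lowess, 5 lower and 4 higher; the test on each probe's own variance had 12 at an unadjusted P under 0.05. For DNAJ names, 4, they were 3 without lowess, all higher, 1 by that test, 1 with the minimum fold and from 0 to 4 with an array left out, where limma had 7 at an unadjusted P under 0.05 with all arrays. The causes of these differences were not tested.

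Of the genes followed singly through the alternatives, the sign turned without lowess for *HSP90AB1* (0.57), *HSPA8* (0.41), *HSPD1* (0.38), *HSPA5* (0.35), *HSPB1* (0.32), *HSP90B1* (0.29), *ST13* (0.066), *BAG3* (0.061) and *HSP90AA1* (0.047). It turned for *HSPA9* (-0.0087) and *HSF1* (-0.022) with normexp and loess, and for both without replicate 1; with an array left out they ran from -0.0073 to 0.091 and from -0.064 to 0.036. Of the other values of these genes under an alternative, 422 kept sign and side of the threshold, 136 lost the call and 2 gained it.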
